A study of Mus musculus with 4 samples.

Results

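The 7 chemokine receptor genes described here, Ccr1, Ccr2, Cx3cr1, Cxcr2, Cxcr4, Ccrl2 and Ackr3, are receptors that myeloid cells use or that share their ligands. They were found in the count table by the Ensembl identifier, without its version, that carries each symbol in GENCODE release M21, and they are 7 of the 54146 genes listed. The RNA came from tumor associated macrophages (TAMs) of female mice 8 to 16 weeks old, which carried subcutaneous flank tumors of MCA205, a cultured mouse fibrosarcoma line. Control mice (labelled vehicle) were compared with mice that drank propranolol, a blocker of beta-adrenergic receptors, at 0.5 g/L from the day the cancer cells were given. The mouse strain is not stated for the sorted samples (the study grew this line in C57BL/6 and in nude mice), and no transgene or deletion is named for either group. After enrichment of CD45+ cells on magnetic beads, live cells positive for CD11b and F4/80 were sorted, so that the gate was set on surface proteins and not on any of the 7 receptors. There were 2 libraries in each group, which the study calls biological replicates, but the number of mice behind a library and any pooling are not given in the sources used here. The control libraries held 13798249 (replicate 1) and 23018142 counts (replicate 2), and the propranolol libraries held 39818103 and 16424081 counts.

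Chemokine receptors sit in the cell membrane and bind small secreted proteins that guide leukocytes between bone marrow, blood and tissue. Conventional receptors pass the signal on through G proteins of the Gi class, are phosphorylated by G protein-coupled receptor kinases and are taken up with arrestins. Atypical receptors bind their ligands without that G protein signal and mostly clear, store or present them. In tumors, Ccr2 is known for the entry of blood monocytes, Cx3cr1 for monocytes and resident macrophages, and Cxcr2 for neutrophils.

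Most conventional chemokine receptors share a short stretch at the inner end of the third membrane helix, the DRY motif (aspartate, arginine, tyrosine) followed by further conserved codons, through which they couple to the G protein. The coding windows of 21 bases that begin at this stretch are shown for how the members differ at this place. Capitals mark the 9 bases of the 3 codons at the place of the motif. The windows were read from the GENCODE M21 coding transcripts (GRCm38) and are written 5′ to 3′ on the strand of the gene.
Ccr1, chr9:123964084-123964104, minus strand: GACAGATACctggccattgtc
Ccr2, chr9:124106132-124106152, plus strand: GATAGGTACttggctattgtt
Cx3cr1, chr9:120051936-120051956, minus strand: GACCGGTACcttgccatcgtc
Cxcr2, chr1:74158772-74158792, plus strand: GACCGCTACctggccattgta
Cxcr4, chr1:128589500-128589520, minus strand: GACCGGTACctcgctattgtc
Ccrl2, chr9:111056015-111056035, minus strand: CAAGGATACagggtgttttcc
Ackr3, chr1:90214241-90214261, plus strand: GACCGCTATctctccatcacc
Of the members, 6 kept all 3 codons of the motif and Ccrl2 kept 1. Among 24 conventional and atypical receptor genes read in this way, 19 kept all 3. The others were Ccrl2 and Ackr1 with 1 codon and Cxcr6, Xcr1 and Ackr2 with 2, so that conventional and atypical receptors stood on both sides. Ackr3, an atypical receptor, kept the motif, and its window matched that of Ccr1 at 13 of 21 bases, against 11 for Ccrl2 and 16 to 18 for the other members. Each window lay within 1 coding exon.

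All 7 receptors passed the filter on low counts, and 1 of them, Cxcr2, was changed between TAMs of propranolol treated mice and of control mice. A gene was called changed when the edgeR quasi-likelihood test gave a Benjamini-Hochberg adjusted p under 0.05 over all 14688 tested genes and the change exceeded 1.5-fold. By this rule 27.8% of all tested genes were changed, 12.2% higher and 15.6% lower after propranolol. The members' share, 1 of 7, or 14.3%, was not above this background. For 5 members both propranolol libraries lay on the same side of both control libraries in CPM, which divides counts by library size after TMM scaling, which held for 72.6% of all tested genes. The median log2 fold change (propranolol over control) was 0.29 over the members and -0.02 over all tested genes. In RNA from bulk samples, fewer cells of a type and less RNA per cell cannot be told apart, and this holds for every value that follows.

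**Figure D1:**
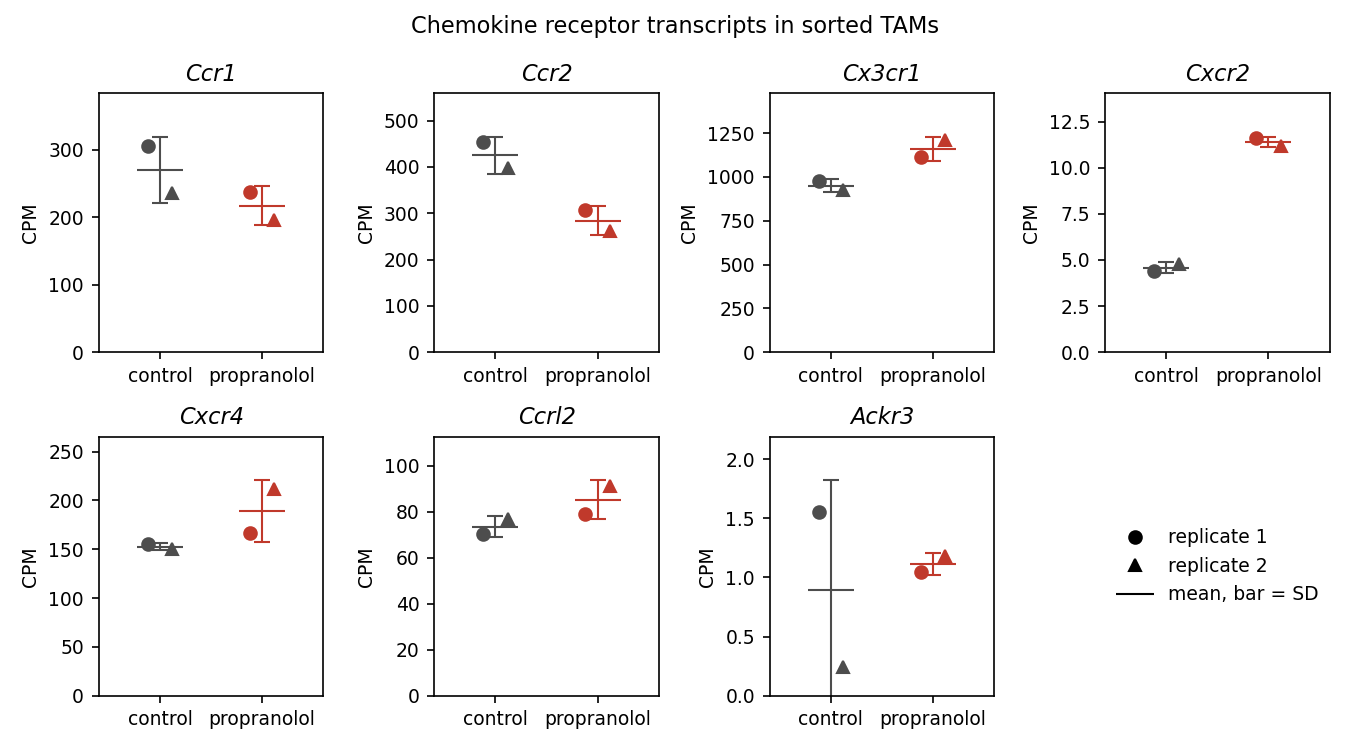
CPM of the 7 receptor genes in each library of sorted TAMs, with control libraries in grey and propranolol libraries in red. Points are libraries (circle, replicate 1; triangle, replicate 2), the horizontal line is the group mean and the bar is the SD (n = 2), whose lower end is hidden by the axis for control Ackr3; Cxcr2 shows the widest gap between groups relative to its spread.

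To compare the receptors with each other, levels were expressed as TPM, which also divides the counts by the exon length of the gene. Cx3cr1, the fractalkine receptor, had the highest level of the members in both groups, with 708 and 690 TPM in the control libraries and 681 and 771 TPM in the propranolol libraries. In control TAMs Ccr1 followed at 317 ± 51.2 TPM, then Cxcr4 at 280.4 ± 1.197, Ccr2 at 209 ± 15.4, Ccrl2 at 94.0 ± 7.76, Cxcr2 at 4.996 ± 0.410 and Ackr3 at 0.878 ± 0.902 (SD, n = 2 libraries). Ccr1 and Cxcr4 did not differ beyond their spread in control replicate 2, at 280.4 and 279.5 TPM, and all other neighbours in this order stood apart in both control libraries. In TAMs of propranolol treated mice Cxcr4 came second at 295 ± 57.8 TPM, before Ccr1 at 216 ± 22.8, Ccr2 at 118 ± 9.58, Ccrl2 at 92.4 ± 11.9, Cxcr2 at 10.5 ± 0.0292 and Ackr3 at 0.936 ± 0.106 (SD, n = 2 libraries). Ccr2, with 125 and 111 TPM, and Ccrl2, with 84.0 and 100.7 TPM, came close to each other there, but their ranges did not overlap, nor did those of the other neighbours. In terms of rank among all tested genes in control TAMs, Cx3cr1 lay at percentile 99.0 of TPM, Cxcr2 at 30.3 and Ackr3 at 7.05.

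Among the receptors for CXC chemokines, Cxcr2 (ENSMUSG00000026180.8, chromosome 1, 74153989 to 74161246, plus strand) binds the chemokines that recruit neutrophils. It had 4.38 and 4.78 CPM in the control libraries and 11.6 and 11.2 CPM in the propranolol libraries, from 65, 120, 422 and 171 counts. Both propranolol libraries lay above both control libraries, and the replicates of a group stood close together. Cxcr2 rose 2.48-fold (log2 fold change 1.31, SE 0.22, adjusted p = 0.00110, edgeR quasi-likelihood test with Benjamini-Hochberg adjustment), which is percentile 98.9 of the log2 fold changes of all tested genes. Counting error alone gave a ratio between 2.10 and 2.94 (exact 95% interval on the summed counts), which does not cover differences between mice. Cxcr2 was changed under every other test, scaling, filter and left-out library tried, with log2 fold changes from 1.25 to 1.65, but its change did not reach a log2 fold change of 1.5 in the test reported here. Words of 50 bases that also occur in transcripts of other genes made up 6.68% of its transcript sequence.

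The 3 genes that followed Cxcr2 most closely across the 4 libraries, among those with a mean of at least 10 CPM, were found by the distance between log2 CPM values centred on each gene's mean. These were Dcxr, which encodes a carbonyl reductase (distance 0.0536), Gmppb, which encodes a subunit of a GDP-mannose-forming enzyme (0.0585), and Polr2l, which encodes a small RNA polymerase subunit (0.0731), out of 8857 candidates. Their log2 fold changes were 1.31, 1.33 and 1.23. The points of this comparison are only 4 libraries in 2 groups.

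Most neutrophil markers moved in the same direction as Cxcr2. Of 20 neutrophil marker genes, 15 were tested, 12 rose and 0 fell, with a median log2 fold change of 1.14. Their summed level was 312 and 319 CPM in the control libraries and 706 and 752 CPM in the propranolol libraries. Csf3r, the G-CSF receptor and the most abundant of them, had a mean of 113 CPM in control and 167 CPM in propranolol libraries. In the test reported here Csf3r (log2 fold change 0.56), Mmp8 (0.67) and Ltf (-0.33) were the 3 tested markers without a call. Slpi, a protease inhibitor (log2 fold change 2.57), Lcn2, lipocalin 2 (2.33, and 3.00 without control replicate 2), and Hdc, the histamine-forming enzyme (2.14), rose most. Ly6g, the marker that defines mouse neutrophils, had 0 and 0.0797 CPM in the control libraries and 0.468 and 0.524 CPM in the propranolol libraries, too few counts for a test, and Camp, Elane and Mpo, genes of neutrophil granules, were each at 0 in at least 1 library. Cxcr1, the neighbouring receptor of neutrophils, had 1, 11, 29 and 5 counts and was not tested. The gate on F4/80 would remove most neutrophils, and their part in the higher Cxcr2 level was not tested.

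Cxcr4 (ENSMUSG00000045382.6, chromosome 1, 128588199 to 128592293, minus strand), the receptor for Cxcl12 that holds leukocytes in the bone marrow, had 155 and 150 CPM in the control libraries and 167 and 212 CPM in the propranolol libraries. The groups did not overlap, but propranolol replicate 2 lay well above propranolol replicate 1. The log2 fold change of 0.31 (SE 0.12) did not pass the edgeR quasi-likelihood test (adjusted p = 0.0673). Without propranolol replicate 2 it was 0.16 and without propranolol replicate 1 it was 0.47. With the GC trend of the libraries removed, as described below, it was 0.61 and Cxcr4 passed the rule. With all 4 libraries kept, the adjusted p was also under 0.05 with the replicate block and without a filter on low counts, but the change then stayed under the fold rule.

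Among the receptors for CC chemokines, Ccr2 (ENSMUSG00000049103.14, chromosome 9, 124101950 to 124113557, plus strand), through which monocytes respond to Ccl2, had 454 and 397 CPM in the control libraries and 306 and 262 CPM in the propranolol libraries. Both propranolol libraries lay below both control libraries, by more than the spread of either group. The log2 fold change was -0.58 (SE 0.11, adjusted p = 0.00249, edgeR quasi-likelihood test), and the change of 1.496-fold stood just under the 1.5-fold rule, so that Ccr2 was not called changed. It passed the rule without control replicate 2 (-0.66) and without propranolol replicate 1 (-0.69), and its direction turned to 0.36 when the GC trend of the libraries was removed, as described below. Words of 50 bases that also occur in other genes made up 1.91% of those of Ccr2, so that a small part of the reads could be shared.

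Ccr1 (ENSMUSG00000025804.5, chromosome 9, 123962124 to 123968692, minus strand), a receptor for Ccl3, Ccl5, Ccl6 and Ccl9, had 305 and 236 CPM in the control libraries and 238 and 197 CPM in the propranolol libraries. The groups overlapped, since control replicate 2 lay below propranolol replicate 1. The log2 fold change of -0.31 (SE 0.14) did not pass the edgeR quasi-likelihood test (adjusted p = 0.0934). With the replicate block the same test gave -0.31 with an adjusted p of 0.00597, and the change stayed under the fold rule. Leaving out control replicate 1 gave -0.06, leaving out control replicate 2 gave -0.47, and removing the GC trend gave 0.66.

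Cx3cr1 (ENSMUSG00000052336.7, chromosome 9, 119901616 to 120069879, minus strand) had 975 and 923 CPM in the control libraries and 1112 and 1210 CPM in the propranolol libraries. The propranolol libraries lay above the control libraries without overlap. The log2 fold change of 0.29 (SE 0.09, adjusted p = 0.0264, edgeR quasi-likelihood test) was a 1.22-fold difference and did not reach the fold rule. Over the alternatives its adjusted p ranged from 0.000804 to 0.104, and it was above 0.05 with upper-quartile factors, with the GC trend removed, without control replicate 2 and without propranolol replicate 2. An antisense transcript, Gm33858, overlaps an exon of Cx3cr1 by 78 bases, and since no strand setting is stated for the counting, reads from that stretch cannot be assigned.

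The receptors without conventional signalling did not pass the test. Ccrl2 (ENSMUSG00000043953.12, chromosome 9, 111054486 to 111057519, minus strand), which presents chemerin to neighbouring cells and is the member with 1 motif codon, had 70.3 and 76.7 CPM in the control libraries and 79.1 and 91.2 CPM in the propranolol libraries. The groups did not overlap, and the log2 fold change was 0.21 (SE 0.11, adjusted p = 0.170, edgeR quasi-likelihood test). Ackr3 (ENSMUSG00000044337.5, chromosome 1, 90203980 to 90216751, plus strand), which removes Cxcl12 and Cxcl11, had 1.55 and 0.239 CPM in the control libraries and 1.05 and 1.18 CPM in the propranolol libraries, from 23, 6, 38 and 18 counts. Both propranolol libraries lay between the control libraries. Its log2 fold change was 0.40 (SE 0.76, adjusted p = 0.709, edgeR quasi-likelihood test), 2.24 without control replicate 1 and -0.47 without control replicate 2, so that its direction turned when control replicate 2 was left out. Counting error alone gave a ratio between 0.937 and 2.42 (exact 95% interval), and the control libraries lay further apart than the group means, so that no difference was detectable with these libraries.

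Ackr3 and the markers of fibroblasts or sarcoma cells were both highest in control replicate 1, but they parted in control replicate 2. There Ackr3 had its lowest value, 0.239 CPM from 6 counts. The 11 marker genes summed to 3470 CPM in control replicate 1 and to 1324 CPM in control replicate 2. Both sums stood above the 748 and 786 CPM of the propranolol libraries. The list was led by Col3a1, a fibrillar collagen with a mean of 858.5 CPM in control and 218 CPM in propranolol libraries. Of the 11, 9 fell and 0 rose after propranolol (6 fell without control replicate 1), Postn most (log2 fold change -2.54), although Postn was not called changed with the GC correction described below. Without control replicate 1 the log2 fold change of Postn was -1.40, and that of Col3a1, which had 1294 and 423 CPM in the control libraries, was -0.90 in place of -1.97. Without control replicate 2 that of Postn was -3.15. None was at 0 in any library. Their part in the Ackr3 level was not tested.

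The members with a negative log2 fold change were those of lowest GC content. Across 14681 tested genes the log2 fold change had a Spearman correlation of 0.577 with the GC content of the longest transcript, in points that share the same 4 libraries. Ccr1 had 39.1% GC and Ccr2 39.4%, and the other 5 members had 45.6% to 50.3% GC. With the smooth GC trend of each library removed before the same test, all 7 members had a positive log2 fold change, with a median of 0.47, while the median of all tested genes moved from -0.02 to 0.09. Ccr1 then passed the rule at 0.66 (adjusted p = 0.00625 by the edgeR quasi-likelihood test) and Cxcr4 at 0.61 (adjusted p = 0.00882, same test). Ccr2 stood at 0.36 (adjusted p = 0.0290, same test) and remained under the fold rule, and Cxcr2 was changed at 1.65 (adjusted p = 0.000951, same test). Without the correction, every way of testing gave Ccr1 and Ccr2 a negative log2 fold change, and neither Ccr1 nor Cxcr4 passed the rule. The lowest adjusted p of Ccr2, 1.20e-05 by the DESeq2 Wald test, belonged to a log2 fold change of -0.58. Over all genes, 1855 were changed in place of 4084, with 60.5% of them higher in place of 44.0%, and 1310 genes were changed in the same direction both ways. Whether the trend arose in the cells or in the libraries was not tested.

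**Figure D2:**
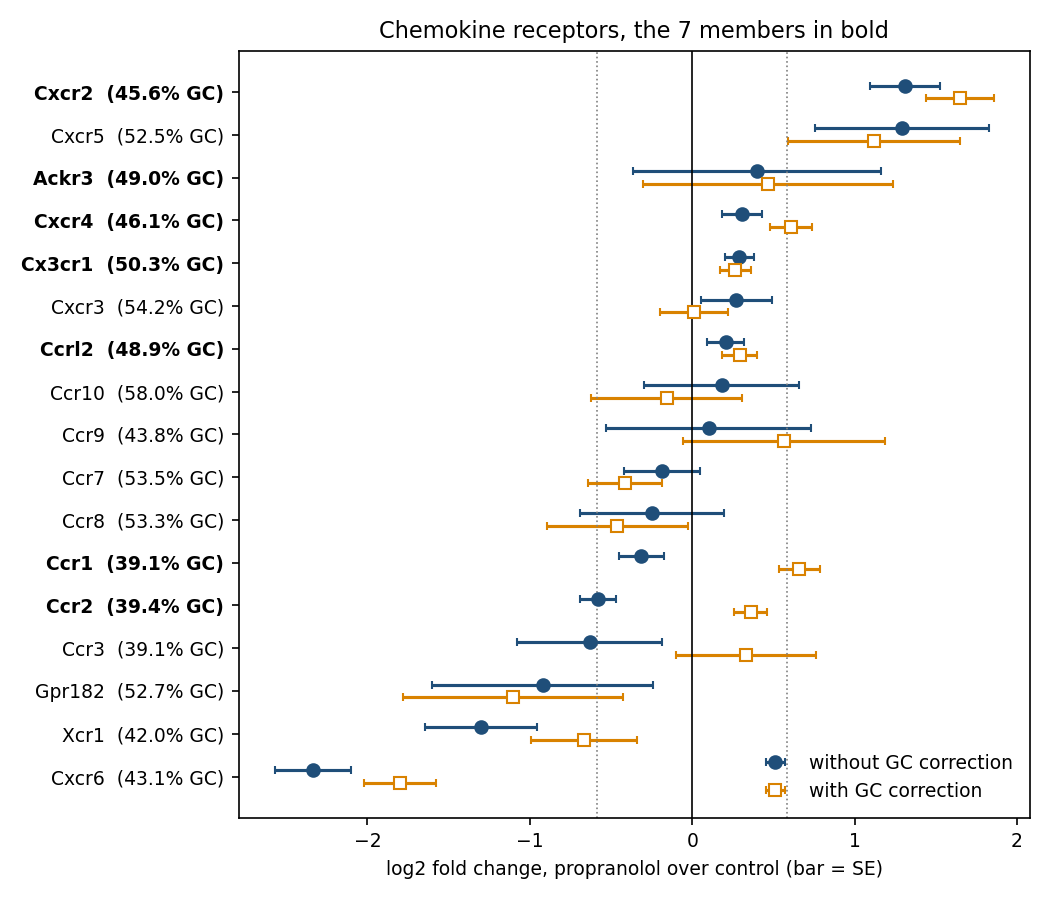
Log2 fold change (propranolol over control) of chemokine receptors, the 7 members in bold, without (filled circles) and with (open squares) removal of the GC trend. Bars are SE, dotted lines mark 1.5-fold and the GC content of each gene stands beside its name; Ccr1, Ccr2 and Ccr3, near 39% GC, cross from below to above 0, as Ccr10 does in the other direction, while Cxcr2 stays above and Cxcr6 below 1.5-fold.

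**Figure D3:**
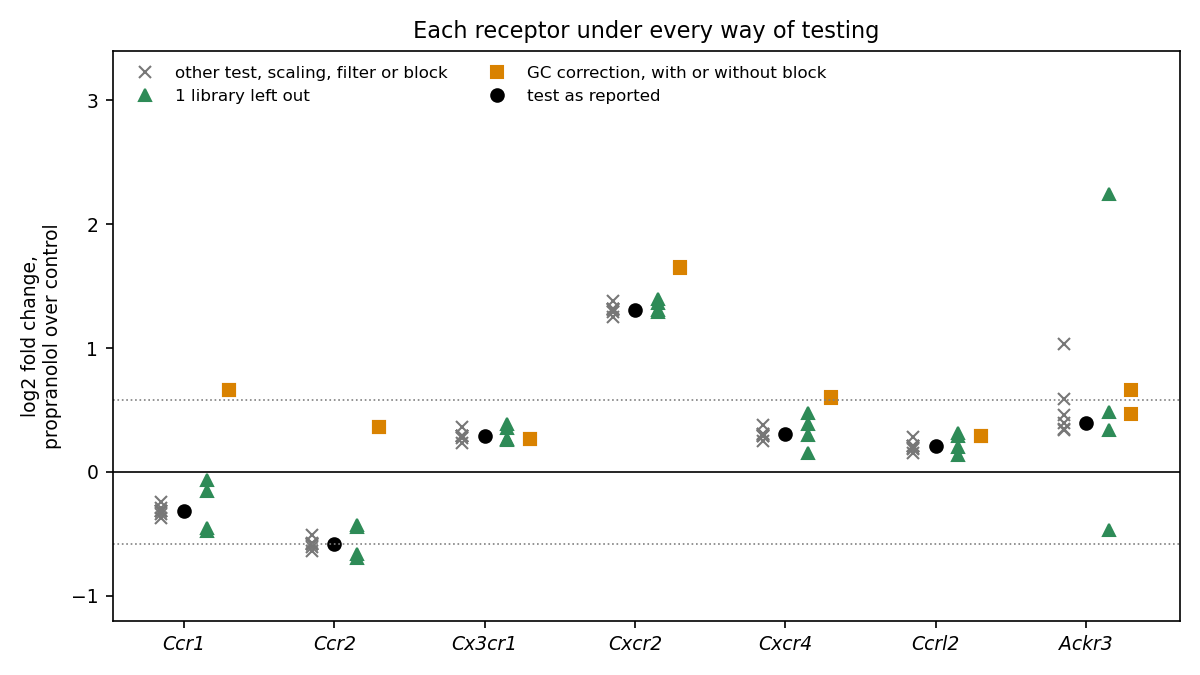
Log2 fold change (propranolol over control) of each receptor in the test reported here (black circles), under other tests, scalings, filters or the replicate block (grey crosses), with 1 library left out (green triangles) and with the GC trend removed (orange squares). Dotted lines mark 1.5-fold; Cxcr2 stays above 1.5-fold in all of them, Ccr1 and Ccr2 change sign only with the GC correction, and Ackr3 spans -0.47 to 2.24 with a library left out.

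The remaining chemokine receptors gave the setting of the members. Of 14 other conventional receptors 10 were tested, and 0 rose and 2 fell, with a median log2 fold change of -0.22. With a CPM of at least 1 required in every library of a group, 1 rose and 3 fell, and with the GC trend removed 0 rose and 1 fell. Cxcr6, a receptor of T cells and NK cells, had 17.8 and 22.7 CPM in the control libraries and 4.68 and 3.14 CPM in the propranolol libraries, with no overlap (log2 fold change -2.34, SE 0.24, adjusted p = 0.000128, edgeR quasi-likelihood test), and was -1.80 with the GC trend removed. Xcr1, the receptor of cross-presenting dendritic cells, had a log2 fold change of -1.30 (adjusted p = 0.0125, edgeR quasi-likelihood test) and was no longer changed with the GC trend removed (-0.67, adjusted p = 0.171, the highest over its alternatives, from 0.000943). Of 4 other atypical receptors only Gpr182 could be tested, and it did not pass (log2 fold change -0.92, adjusted p = 0.306, edgeR quasi-likelihood test).

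T cell and NK cell markers moved with Cxcr6, and dendritic cell markers are given beside Xcr1. Of 13 T cell markers 12 fell and 0 rose, with summed levels of 309 and 357 CPM in the control libraries and 150 and 76.4 CPM in the propranolol libraries, led by Cd8a (a mean of 78.9 CPM in control and 21.4 in propranolol libraries). All 8 NK cell markers fell, from 248 and 252 CPM to 110 and 56.4 CPM in sum, led by Gzmb, granzyme B (a mean of 105 and 39.8 CPM), and 6 of them were called with the GC trend removed, where Klrk1 stood at -0.05 and Ncr1 at -1.30 without a call. Of 10 dendritic cell markers 3 fell and 0 rose, among them Clec9a (log2 fold change -1.52, and -1.15 without a call when control replicate 2 was left out), with a median log2 fold change of -0.44, and the number that fell was 1 without control replicate 1 and 5 with the replicate block. Their sum was 407 and 408 CPM in the control libraries and 475 and 422 CPM in the propranolol libraries, most of it from Naaa (a mean of 315 CPM in control and 383 CPM in propranolol libraries). No marker of these 3 lists was at 0 in any library. The gate on CD11b and F4/80 would remove most T cells and NK cells, and their part in the Cxcr6 level was not tested.

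**Figure D4:**
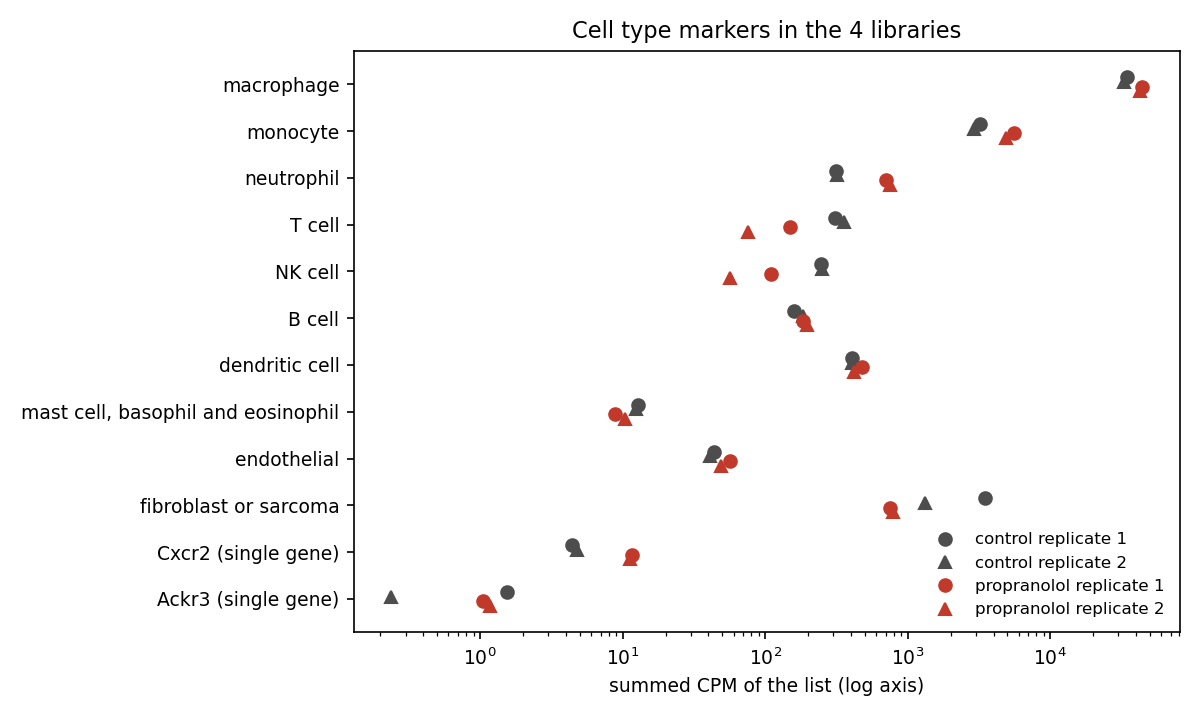
Summed CPM (log axis) of each list of cell type markers in the 4 libraries, with Cxcr2 and Ackr3 as single genes below (circles, replicate 1; triangles, replicate 2; grey, control; red, propranolol). The neutrophil sum of 312 and 319 CPM in control and 706 and 752 CPM in propranolol libraries parts the groups as Cxcr2 does. Control replicate 1 is highest for both the fibroblast or sarcoma list and Ackr3. In control replicate 2 Ackr3 is at its lowest, while the fibroblast or sarcoma list is above both propranolol libraries.

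The label of the sorted cells was checked against macrophage markers. All 15 were tested and none was at 0, 3 rose (Trem2, Cd14 and Csf1r, with log2 fold changes of 0.94, 0.68 and 0.59) and 0 fell. Csf1r and Cd14 lost their call with the GC trend removed, Csf1r also with upper-quartile factors, a stricter filter or propranolol replicate 2 left out, and the number that rose was 2 to 5 over the alternatives, with 5 without control replicate 1 or propranolol replicate 2. Their sum was 34715 and 32869 CPM in the control libraries and 44141 and 42848 CPM in the propranolol libraries, led by Apoe, and was the highest of all marker lists. The genes of the gate, Adgre1 for F4/80 (975 and 1008 CPM in control, adjusted p = 0.117) and Itgam for CD11b (359 and 352 CPM in control, adjusted p = 0.683), did not pass the edgeR quasi-likelihood test. A protein-coding gene on the same strand, Gm49368, overlaps exons of Itgam by 3450 bases, so that the counts of Itgam may not cover all of its reads. The markers of monocytes, which carry Ccr2 and Cx3cr1, summed to 3212 and 2938 CPM in the control libraries and 5524 and 4862 CPM in the propranolol libraries. Of 13 monocyte markers 6 rose, among them Fn1, the most abundant, and Chil3 (log2 fold change 1.28) and Ifitm6 (1.14), and 1 fell, Ms4a4c (-1.09), which had -0.01 with the GC trend removed. Of the remaining lists, 1 of 3 tested B cell markers rose and 1 fell (159 and 183 CPM in sum in the control libraries and 184 and 196 CPM in the propranolol libraries, led by Ighm), 1 of 3 tested endothelial markers rose (43.6, 41.1, 56.5 and 49.3 CPM, led by Pecam1) and 1 of 3 tested mast cell, basophil and eosinophil markers fell (12.9, 12.4, 8.83 and 10.3 CPM, led by Kit), with Epx, Fcer1a and Mcpt8 at 0 in all libraries. With the GC trend removed none of the B cell and endothelial genes was called changed, but with the replicate block added 1 endothelial gene, Kdr, was called higher. With all 4 libraries kept, Kdr was also called with limma-voom, without a filter on low counts and with the replicate block alone. Its log2 fold change, 0.64 in the test reported here, ranged from 0.48 without propranolol replicate 1 to 0.81 without propranolol replicate 2. The B cell fall (Ms4a1) was also lost with any library left out. The endothelial rise (Cdh5) was also lost without control replicate 2, without either propranolol library, with DESeq2 and with upper-quartile factors.

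The ligands of the members were measured in the same cells. Of 17 ligand genes 16 were tested, 6 rose and 2 fell, and the median log2 fold change was 0.09. More of them fell without propranolol replicate 1. Ccl9, at -0.47 with all libraries, ranged from -0.87 without propranolol replicate 1 to -0.13 without propranolol replicate 2. Cxcl11, at -0.73, ranged from -1.09 to -0.45 in the same way, and neither was called changed in the test reported here. The Cxcr2 ligands Cxcl3 (log2 fold change 3.25), Ppbp (2.25) and Cxcl2 (1.44) and the Ccr2 ligand Ccl2 (1.12) rose most in the test reported here, and each was called changed under the other tests, scalings, filters and left-out libraries tried. Mif (1.07), a cytokine that also binds Cxcr2 and Cxcr4, and Cxcl1 (1.02), a further Cxcr2 ligand, also rose, but Cxcl1 did not pass without control replicate 2 or without propranolol replicate 2. The Cx3cr1 ligand Cx3cl1 fell (-1.31, adjusted p = 0.0255, edgeR quasi-likelihood test), with 15.2 and 6.22 CPM in the control libraries and 5.25 and 3.01 CPM in the propranolol libraries, but did not pass without control replicate 1 (-0.50) or with limma-voom. The Cxcr4 and Ackr3 ligand Cxcl12 also fell (-1.01, adjusted p = 0.0129, edgeR quasi-likelihood test), with 13.2 and 10.6 CPM in the control libraries and 7.23 and 4.26 CPM in the propranolol libraries. For the other Ccr2 ligands, Ccl12, the most abundant ligand by TPM, had a log2 fold change of 0.20 and Ccl7 one of -0.56 (adjusted p = 0.0394, under the fold rule), both by the edgeR quasi-likelihood test. With the GC trend removed Ccl12 was called changed at 0.84, its sign turned to -0.05 without propranolol replicate 1, and Ccl7 stood at -0.01. Ccl7 ranged from -0.97 without propranolol replicate 1 to -0.22 without propranolol replicate 2, and it passed the fold rule without control replicate 1, without propranolol replicate 1, and with upper-quartile factors or the replicate block. Cxcr2 and 4 of its CXC ligands were higher in the propranolol libraries, whereas Ccr2 had a negative log2 fold change beside a higher Ccl2, a sign that turned with the GC trend removed.

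Receptors for other chemoattractants, such as complement fragments, formylated peptides and leukotrienes, are expressed by the same myeloid cells. Of 14 such genes 13 were tested, 5 rose and 2 fell, with a median log2 fold change of 0.43. C5ar1, the receptor for the complement fragment C5a and the most abundant of them, had 381 and 384 CPM in the control libraries and 804 and 799 CPM in the propranolol libraries (log2 fold change 1.07, SE 0.09, adjusted p = 0.000103, edgeR quasi-likelihood test). Ltb4r1, the high-affinity leukotriene B4 receptor (1.503), and Fpr1, a receptor for formylated peptides (1.22, and 1.84 without control replicate 2), also rose. These 3 were changed with the GC trend removed as well, whereas P2ry6 (0.82), a nucleotide receptor, and Cmklr1 (0.80), the signalling receptor for chemerin, then missed the fold rule. Cysltr1 (-0.89), a leukotriene receptor, and P2ry12 (-0.85), a nucleotide receptor, fell in the test reported here, but turned to 0.44 and 0.18 with the GC trend removed.

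Genes that relay or end chemokine receptor signals were tested for all 30 listed, of which 9 rose and 4 fell, with a median log2 fold change of 0.23. With the GC trend removed 2 rose and 2 fell. Gnai2, the main Gi alpha subunit of leukocytes and the most abundant of the list, had 1179 and 1114 CPM in the control libraries and 2138 and 2197 CPM in the propranolol libraries (log2 fold change 0.92, SE 0.09, adjusted p = 0.000103, edgeR quasi-likelihood test). Grk2, a receptor kinase (0.85), Gnb2, a G protein beta subunit (0.81), and Arrb2, an arrestin (0.76), also rose. With the GC trend removed Gnai2 was changed at 0.59, and the other 3 stood at 0.52, 0.49 and 0.45, under the fold rule. Rgs16, which speeds up the shut-off of G proteins, fell (-1.63, and -1.86 with the GC trend removed), while Rgs1 (-1.01), of the same family, turned to 0.39, and Cdc42 (-0.83), a GTPase of cell polarity, and Rgs2 (-0.66) stood at -0.23 and -0.17 with the GC trend removed.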

How the data were processed

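RNA sequencing counts of FACS-sorted TAMs were analysed for 2 control and 2 propranolol libraries. Per the labels, reads were mapped to mm10 by the authors using STAR (2.7.1a), filtered by mapping quality with SAMtools (1.9) and counted as read pairs on exons with featureCounts (1.6.4), and the deposited values are raw counts per gene. Versions are from the submitters' processing notes, which also name DESeq2 (1.39.0), and the annotation release and strand setting are not given in the sources used here. Low counts limit precision, most of all for Ackr3.

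Identifiers were matched to GENCODE M21 for 54079 genes (67 unmatched). Counts were filtered with filterByExpr (minimum count 10), TMM-scaled and compared with the edgeR (4.0.16) quasi-likelihood test in R (4.3.3). SE is the coefficient over the root of F. TPM used the union of exons. The GC correction removed a natural spline (5 degrees of freedom) of log2 CPM on GC content through offsets. Alternatives also used DESeq2 (1.42.0) and limma-voom (limma 3.58.1). Exact permutation of 2 against 2 libraries cannot give a two-sided p below 0.333. Replicates differed by more than sampling noise (chi-square per degree of freedom 10.6 and 13.7). Steps were tested on simulated data.

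All 7 members are named. Of the other receptor, ligand and relay lists, the text names at most the 4 changed genes with the largest log2 fold change in each direction and the most abundant by TPM; of marker lists, at most 3 changed genes, the most abundant by CPM and those at 0. The untested Cxcr1 and Ly6g, the gate genes Adgre1 and Itgam, and Mif, Cxcl1, Ccl7, Ccl9, Cxcl11, Kdr, Mmp8 and Ltf were added after their values were seen. Cmklr1 is also named beyond these limits. An item of the receptor list is not reported here. Genes like Cxcr2 were the 3 with the smallest Euclidean distance. Members and lists were chosen with earlier results of these data known.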

Additional observations from a re-analysis of the deposited data

How the results depend on the processing

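The number of changed members, 1 in the test reported here, was 2 with upper-quartile factors and 2 with a CPM of at least 1 required in every library of a group, where Ccr2 passed the fold rule (log2 fold change -0.64 and -0.60). It was 3 with the GC correction and 3 with the GC correction and the replicate block, 3 with adjusted p alone, 0 with a log2 fold change over 1.5, and 1 to 2 with each library left out in turn. The changed genes among all tested, 4084, were 1855 with the GC correction, 2128 with the GC correction and the block, 728 above a log2 fold change of 1.5 and 6204 by adjusted p alone. With the GC correction, and with the block added, Ccr1 reversed to 0.66 and 0.67, Ccr2 reversed to 0.36 and 0.36, and Cxcr4 passed at 0.61 and 0.60. With a library left out, Ccr2 ranged from -0.69 to -0.43 and Ackr3 from -0.47 to 2.24, the remaining library of that group being taken to vary as the 2 of the other group did. Ackr3 had no value under the stricter filter. No other alternative changed the direction or the call of a member.

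The replicate numbers gave a correlation of 0.169 between the deviations of the libraries numbered 1 across 14688 genes, and the labels do not say what a number marks. With the replicate block, log2 fold changes were -0.31 for Ccr1, -0.58 for Ccr2, 0.29 for Cx3cr1, 1.31 for Cxcr2, 0.30 for Cxcr4, 0.21 for Ccrl2 and 0.59 for Ackr3, no member's call changed and 4362 genes were changed in all. Of the other lists together, 88 genes were changed, and 66 to 96 under the alternatives.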
